A study of Homo sapiens with 4 samples.

Results

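The Toll-like receptor and NF-kB signalling genes were read in NB4 cells through 51 members, chosen by gene symbol from receptors to inhibitors, out of the 60662 genes of the deposited table. NB4 is a human acute promyelocytic leukemia (M3/APL) cell line that carries the PML-RARα fusion, and all 4 libraries came from it. A vector group of 2 libraries was transduced with a control vector, and a JMJD3 group of 2 libraries with a vector that expresses JMJD3, the histone H3K27 demethylase encoded by KDM6B. The labels name no Toll-like receptor ligand in either group, no promoter for the vector and no separate cultures or transductions, so that p-values measure only the spread between these libraries, which may be technical. The depth was 39077616 estimated counts for vector library 1, 40767490 for vector library 2, 35176987 for JMJD3 library 1 and 34705254 for JMJD3 library 2. Lane 20 held vector library 1 alone and lane 17 the remaining 3, so values without vector library 1 are also values within a lane.

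Toll-like receptors bind microbial lipids, proteins and nucleic acids at the cell surface or in endosomes. Their adaptors MyD88 and TRIF recruit IRAK kinases and TRAF ubiquitin ligases, the TAK1 complex then activates the IKK kinases, and phosphorylation of IκB releases NF-kB dimers into the nucleus. NFKBIA and TNFAIP3, which shut the pathway down, are themselves NF-kB targets, and KDM6B is known as an NF-kB-induced gene in stimulated macrophages.

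KDM6B (ENSG00000132510), read first as a check of the labels, was at 15.8 and 13.7 CPM (counts scaled to library size) in the vector libraries and at 37.9 and 44.1 CPM in the JMJD3 libraries. The groups did not overlap, and both JMJD3 libraries were high. The log2 fold change, here always JMJD3 against vector, was 1.48 (standard error 0.13, edgeR adjusted p = 0.00114). Introduced and native KDM6B transcripts cannot be told apart in counts per gene.

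The promyelocyte label was read from 9 marker genes, which summed to 16911 and 17662 CPM in the vector libraries and 11068 and 11030 CPM in the JMJD3 libraries. MPO, the most abundant of them, was at 13876 and 14110 CPM in vector cells and at 9379 and 9421 CPM in JMJD3 cells, while ELANE and KIT reached at most 0.351 and 0.216 CPM in any library. Of the 7 tested, CD33, CEBPE and MYB rose and MPO, AZU1, PRTN3 and CTSG fell. CTSG, a granule protease, went from 145 and 164 CPM to 11 and 9.61 CPM.

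Markers of other cells were low or incomplete. The 12 monocyte and macrophage markers summed to 39.5 and 36.5 CPM in vector cells and to 55.4 and 58.4 CPM in JMJD3 cells, led by FCN1 (28.5, 27.2, 35.8 and 39.0 CPM). CSF1R, CX3CR1 and FCN1 rose, while C1QB had 0 counts in all libraries and CD163, MRC1, MARCO, C1QC and VCAN had at most 3 counts in any. The 8 T and NK cell markers summed to 97.0, 117, 138 and 131 CPM, led by NKG7, with CD3E and CD3G at no more than 4 counts and CD3D at 8 to 10 counts (up to 1.35 FPKM) although TRAC and CD2 rose. The 5 B cell markers summed to 25.9, 30.8, 36.6 and 32.8 CPM, led by CD79B, with MS4A1 at 0 and CD79A the marker that rose. Erythroid markers (6 genes) had at most 2 counts each, the 5 megakaryocyte markers summed to at most 3.51 CPM (led over all libraries by GP1BA, with PF4 and GP9 at 0, while ITGA2B rose), and the 6 stromal and epithelial markers to at most 7.68 CPM (led over all libraries by EPCAM, which fell, with COL1A2 and COL3A1 at 0). Whether the shift of myeloid markers bears on the pathway genes was not tested, and in bulk RNA fewer cells with a transcript and less of it per cell cannot be told apart.

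Of the 51 members, 44 were expressed well enough to be tested, and 16 of them passed at an adjusted p under 0.05. Across all 15246 tested genes 40.7% passed, so the share of members, 36.4%, was near the background and is no result about the members as a group. The 9 that rose (background 21.6%) were TLR6, TLR9, TICAM1, TIRAP, IRAK2, IRAK4, REL, NLRP3 and NOD1. The 7 that fell (background 19.1%) were MYD88, IKBKE, NFKB1, NFKBIA, NFKBIE, TNFAIP3 and CASP1. At 2-fold or more, 4 rose (TICAM1, REL, TLR6 and IRAK2, background 7.55%) and 1 fell (TNFAIP3, at the limit itself, background 2.82%). The CPM of the groups did not overlap for 30 of the 44, against 74.4% of all tested genes. The median log2 fold change was 0.04 for the members and 0.04 for all tested genes, so the members moved in both directions around the same centre.

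Libraries of the vector group lay further apart than those of the JMJD3 group: the median absolute log2 ratio between replicates over the tested members was 0.21 in vector and 0.08 in JMJD3, against a median absolute log2 fold change of 0.27. When a JMJD3 library was left out, the spread came from the vector pair alone. Then fewer members passed, as did fewer of all tested genes. Without a vector library more members passed, as did more of all tested genes, and the members at 2-fold changed with the library left out. Past the threshold without each of the 4 libraries in turn were 6 members: TLR6, TICAM1, TIRAP, REL, NFKBIA and TNFAIP3.

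**Figure D1:**
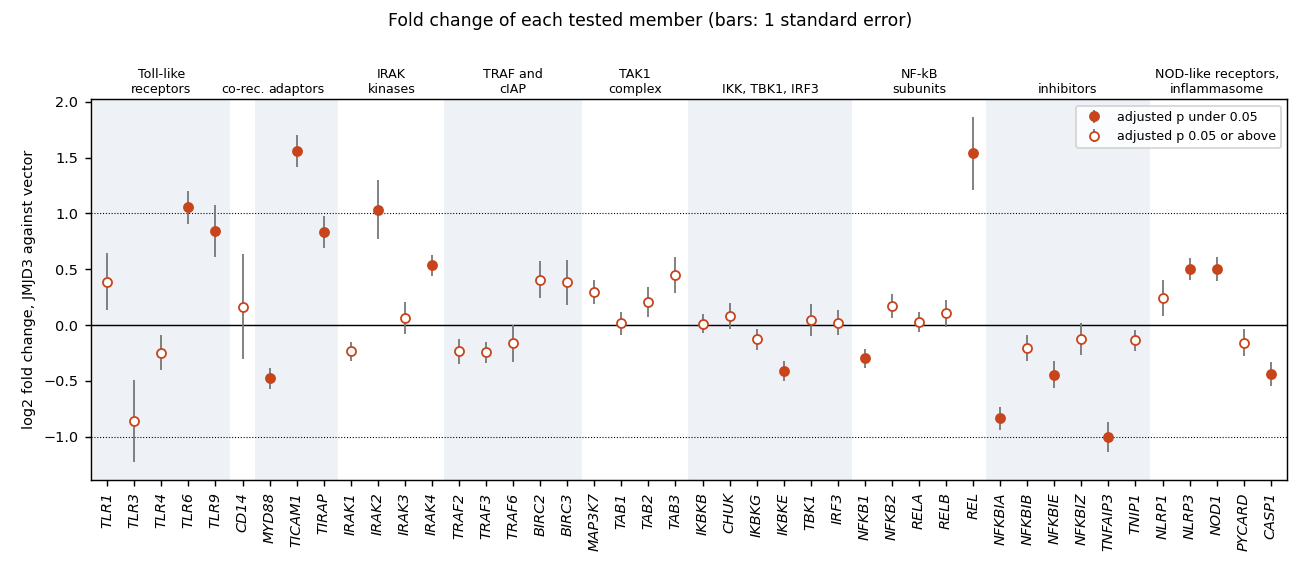
Log2 fold change of each of the 44 tested members, JMJD3 against vector, ordered by role, with bars of 1 standard error and dotted lines at 2-fold. Filled points passed at an adjusted p under 0.05. TICAM1 (1.56) and REL (1.54) are highest and TNFAIP3 (-1.003) is lowest.

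Levels differed far more between members than between groups. Per transcript length, as deposited FPKM values, IRAK1 was highest of the members, at 224 and 257 FPKM in vector cells and 200 and 202 FPKM in JMJD3 cells. PYCARD (102 to 140 FPKM), IRF3 (82.0 to 104) and RELA (56.0 to 72.3) followed. The 5 tested Toll-like receptors were all under 2 FPKM in every library, so the receptors were scarce beside IRAK1, IRF3 and RELA.

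**Figure D2:**
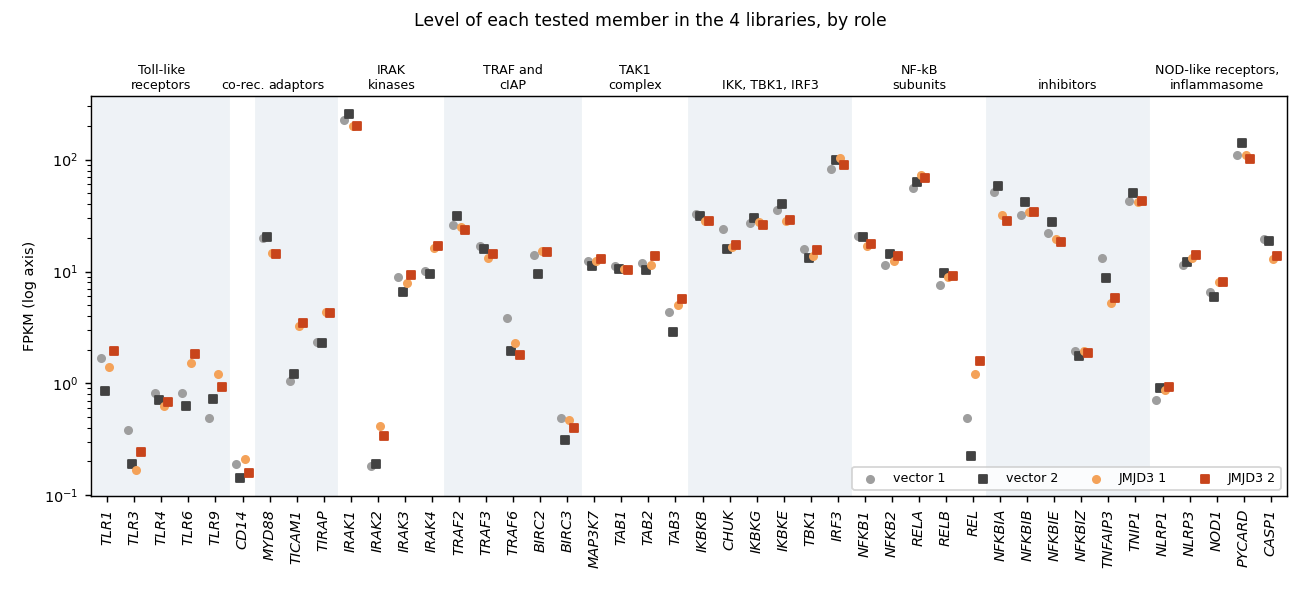
FPKM of each tested member in the 4 libraries on a log axis, by role. The Toll-like receptors and CD14 lie under 2 FPKM, while IRAK1, PYCARD, IRF3 and RELA reach 257, 140, 104 and 72.3 FPKM.

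Among the 10 Toll-like receptors, TLR6 and TLR9 rose, TLR1, TLR3 and TLR4 did not pass, and the other 5 were not tested (40.0% of the tested ones passed, against 40.7% of all tested genes). TLR6, which recognises diacylated lipopeptides as a partner of TLR2, was at 3.62 and 3.35 CPM in vector cells and at 6.72 and 7.78 CPM in JMJD3 cells. Both JMJD3 libraries were high and the groups were well apart, with a log2 fold change of 1.06 (standard error 0.15, edgeR adjusted p = 0.00326). Its partner TLR2 had 0 counts in every library, which allows up to 0.0810 CPM for counting error alone. TLR1, the neighbouring receptor that also pairs with TLR2, stood at 3.02, 1.91, 2.84 and 3.62 CPM, its groups overlapped, and its log2 fold change was 0.39 (edgeR adjusted p = 0.256), 0.72 without vector library 1 (edgeR adjusted p = 0.0505) and 0.096 without vector library 2 (edgeR adjusted p = 0.734). TLR1 and TLR6 are similar genes, and reads may be divided between them where their sequences match. As a ratio of FPKM, TLR6 to TLR1 went from 0.488 and 0.737 in vector cells to 1.08 and 0.944 in JMJD3 cells.

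TLR9, the endosomal receptor for unmethylated CpG DNA, was at 1.78 and 2.54 CPM in vector cells and at 4.40 and 3.38 CPM in JMJD3 cells. The groups did not overlap, but each pair was spread, and the log2 fold change was 0.84 (standard error 0.23, edgeR adjusted p = 0.0276). Without vector library 1, thus within lane 17, it was 0.57 (edgeR adjusted p = 0.0817), and without JMJD3 library 1 it was 0.64 (edgeR adjusted p = 0.111). The call was also lost on FPKM values and with no filter on low counts. In GENCODE 99.7% of the exon bases of TLR9 are shared with RP11-330H6.5, a gene on the same strand, so the estimated counts of both are uncertain. Summed over both, the counts were 196 and 220 in vector libraries and 285 and 291 in JMJD3 libraries, again without overlap.

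TLR4, the receptor for lipopolysaccharide, was at 3.45, 3.14, 2.73 and 2.84 CPM (log2 fold change -0.25, edgeR adjusted p = 0.251). Its co-receptors were nearly absent: CD14 had 8 to 13 counts and LY96, which encodes MD-2, 2 to 5 counts in a library. TLR3, the sensor of double-stranded RNA, had 30 and 20 counts in vector libraries and 14 and 13 in JMJD3 libraries, with a log2 fold change of -0.86 that did not pass (edgeR adjusted p = 0.102). Without vector library 2 the value for TLR3 was -1.14 (edgeR adjusted p = 0.0341) and without vector library 1 -0.56 (edgeR adjusted p = 0.252). TLR5, TLR7, TLR8 and TLR10, which sense flagellin (TLR5) and single-stranded RNA (TLR7 and TLR8), had at most 6 counts in any library.

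Of the 3 adaptors among the members, TICAM1 and TIRAP rose and MYD88 fell, where 40.7% of all tested genes passed. The scarce adaptors TICAM2 and SARM1 of the lists below did not pass (0.63 and 0.19, edgeR adjusted p = 0.624 and 0.701). TICAM2 had 26 and 0 counts in vector libraries and 19 and 21 in JMJD3 libraries, so its value rests on vector library 2. TICAM1, which encodes TRIF, the adaptor of TLR3 and TLR4 that leads to TBK1 and IRF3, was at 2.56 and 2.88 CPM in vector cells and at 8.02 and 8.07 CPM in JMJD3 cells. The JMJD3 libraries were nearly alike and far above both vector libraries. Its log2 fold change was 1.56 (standard error 0.14, edgeR adjusted p = 0.00123). With all 4 libraries, TMM scaling and no replicate block this was the highest of any tested member, narrowly above REL (1.54). The order depended on the library left out: REL was higher without vector library 1 (2.08 against 1.44) or JMJD3 library 1 (1.80 against 1.57). TICAM1 was higher without vector library 2 (1.65 against 1.12) or JMJD3 library 2 (1.56 against 1.23). REL was also higher with the replicate block and on log2(FPKM + 0.1), but not on log2(FPKM + 1). TIRAP, which brings MyD88 to TLR2 and TLR4, went from 4.26 and 3.59 CPM to 7.07 and 6.94 CPM, also without overlap (log2 fold change 0.84, standard error 0.15, edgeR adjusted p = 0.00635).

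MYD88, the adaptor of all Toll-like receptors but TLR3 and of the interleukin-1 receptor family, fell from 47.1 and 47.4 CPM to 34.9 and 33.0 CPM. Each pair was tight and both JMJD3 libraries were low, with a log2 fold change of -0.48 (standard error 0.10, edgeR adjusted p = 0.0101). It was -0.52 without JMJD3 library 1 (edgeR adjusted p = 0.0951) and -0.44 without JMJD3 library 2 (edgeR adjusted p = 0.183). MYD88 nevertheless remained the more abundant adaptor: the ratio of TICAM1 to MYD88 in FPKM, a pair chosen after the values were seen, was 0.0527 and 0.0593 in vector cells and 0.224 and 0.244 in JMJD3 cells.

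**Figure D3:**
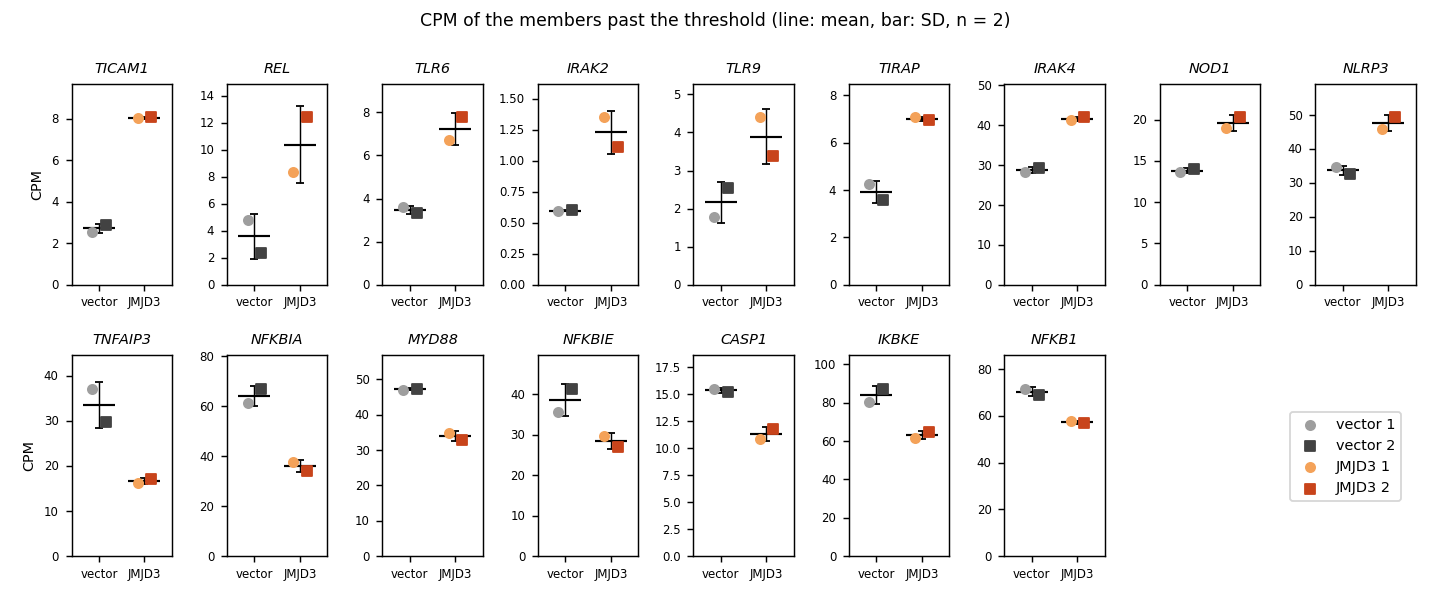
CPM in each library for the 16 members past the threshold, the 9 that rose in the upper row and the 7 that fell in the lower row, with the mean as a line and the SD (n = 2) as a bar. The groups do not overlap in any panel, and the REL pairs (4.78 and 2.38, 8.37 and 12.4 CPM) are the most spread in relation to their means.

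Of the IRAK kinases, which MyD88 assembles at the receptor, IRAK2 and IRAK4 rose (2 of 4, where 40.7% of all tested genes passed). IRAK4, the first kinase to act, was at 28.2 and 29.3 CPM in vector cells and at 41.3 and 42.0 CPM in JMJD3 cells. The pairs were tight and apart, with a log2 fold change of 0.53 (standard error 0.10, edgeR adjusted p = 0.00706), which held its size without JMJD3 library 1 (0.55, edgeR adjusted p = 0.0655) and 2 (0.52, edgeR adjusted p = 0.0900) but not its call. IRAK2 was scarce, at 0.594 and 0.603 CPM against 1.35 and 1.11 CPM, or 22 and 23 against 50 and 41 counts. Its groups did not overlap (log2 fold change 1.03, standard error 0.27, edgeR adjusted p = 0.0222), and the call was lost without JMJD3 library 1 (0.88, edgeR adjusted p = 0.169) or 2 (1.17, edgeR adjusted p = 0.0508), with the DESeq2 Wald test and on FPKM values. IRAK1 was at 627, 707, 567 and 567 CPM, lower in both JMJD3 libraries, but its log2 fold change of -0.23 did not pass (edgeR adjusted p = 0.0594). Without vector library 1 it was -0.36 (edgeR adjusted p = 0.00623) and without vector library 2 -0.14 (edgeR adjusted p = 0.1005). IRAK3, the inactive family member that restrains the pathway, overlapped between groups at 68.2, 51.6, 59.3 and 66.0 CPM.

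With edgeR on all 4 libraries, TMM scaling and no replicate block, none of the 5 TRAF and cIAP ubiquitin ligases passed. Nor did any of the 4 TAK1 complex members, against 40.7% of all tested genes. At an unadjusted edgeR p under 0.05 there were 4 (TRAF3, BIRC2, MAP3K7 and TAB3), and TAB3 alone passed with the DESeq2 Wald test. Of the ligases, TRAF2, TRAF3 and TRAF6 had log2 fold changes of -0.24, -0.24 and -0.16, and BIRC2 and BIRC3, which encode cIAP1 and cIAP2, of 0.41 and 0.38. The values of TRAF2, TRAF6 and BIRC2 depend on the vector library that is left out, while TRAF3 was at -0.18 or -0.31 without JMJD3 library 1 or 2. Without vector library 1, TRAF2 (-0.38, edgeR adjusted p = 0.0104) and BIRC2 (0.63, edgeR adjusted p = 0.00469) passed, while TRAF3 was at -0.23 and TRAF6 at 0.028 (edgeR adjusted p = 0.0590 and 0.845). Without vector library 2, TRAF3 (-0.29, edgeR adjusted p = 0.0399) and TRAF6 (-0.36, edgeR adjusted p = 0.0445) passed, while TRAF2 was at -0.12 and BIRC2 at 0.19 (edgeR adjusted p = 0.221 and 0.139). In the TAK1 complex, which is activated on the chains these ligases build, the kinase MAP3K7 had a log2 fold change of 0.29 (edgeR adjusted p = 0.0677), and its partners TAB1, TAB2 and TAB3 of 0.01, 0.21 and 0.45. MAP3K7 and TAB3 passed with upper quartile scaling and within lane 17, where they were 0.37 and 0.66 (edgeR adjusted p = 0.00904 and 0.00435). Without vector library 2 they were 0.19 and 0.24 (edgeR adjusted p = 0.0690 and 0.0844), and on log2(FPKM + 1) 0.10 and 0.48 (limma adjusted p = 0.556 and 0.118). TAB3 and BIRC2 also passed with the replicate block (0.47 and 0.42, edgeR adjusted p = 0.0212 and 0.0400).

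Of the 6 members around the IKK kinases, IKBKE fell and the others did not pass (16.7% passed, against 40.7% of all tested genes). IKBKB, CHUK and the scaffold IKBKG, which form the complex that phosphorylates IκB, had log2 fold changes of 0.01, 0.08 and -0.13 with standard errors of 0.08, 0.12 and 0.09. On log2(FPKM + 1) IKBKB and CHUK were at -0.18 and -0.20 (limma adjusted p = 0.191 and 0.456), and the FPKM values of IKBKB did not overlap (33.0 and 31.1 against 28.3 and 28.1). IKBKE, the IKK-related kinase closest to TBK1, was at 80.5 and 87.4 CPM in vector cells and at 61.8 and 64.7 CPM in JMJD3 cells, without overlap. Its log2 fold change was -0.41 (standard error 0.09, edgeR adjusted p = 0.0137), and -0.38 or -0.44 without JMJD3 library 1 or 2 (edgeR adjusted p = 0.190 and 0.125). TBK1 (45.2, 35.1, 39.2 and 43.8 CPM) and its substrate IRF3 (60.3, 73.1, 68.7 and 66.8 CPM) overlapped between groups. Thus TICAM1 rose while the kinase and the transcription factor it leads to did not pass.

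Of the 5 NF-kB subunits, REL rose and NFKB1 fell (40.0% passed, against 40.7% of all tested genes). REL, which encodes c-Rel, was at 4.78 and 2.38 CPM in vector cells and at 8.37 and 12.4 CPM in JMJD3 cells. The groups did not overlap, although the vector libraries were 2.0-fold apart, and the log2 fold change was 1.54 (standard error 0.33, edgeR adjusted p = 0.0120). It was 2.08 within lane 17, 1.12 without vector library 2, and 1.80 and 1.23 without JMJD3 library 1 or 2. On log2(FPKM + 1) it was 0.82 (limma adjusted p = 0.0148), below 2-fold. With no filter on low counts REL did not pass (edgeR adjusted p = 0.0705). In GENCODE 33.3% of the exon bases of REL lie in RP11-373L24.1 on the same strand, a gene at 350 and 221 counts in vector libraries and 228 and 152 in JMJD3 libraries. Summed over both genes the levels were 14.2, 8.17, 14.5 and 16.5 CPM. The groups thus lay closer together than for REL alone, and vector library 1 came close to JMJD3 library 1, still without overlap. How reads were divided between the genes was not tested.

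NFKB1, the precursor of the p50 subunit, fell from 71.7 and 69.1 CPM to 57.7 and 56.9 CPM, a small difference between tight pairs (log2 fold change -0.30, standard error 0.09, edgeR adjusted p = 0.0334). Its call was lost without JMJD3 library 1 (-0.31, edgeR adjusted p = 0.315) or 2 (-0.29, edgeR adjusted p = 0.370), with upper quartile scaling, with the replicate block (edgeR adjusted p = 0.134), with no filter and on FPKM values. RELA, the p65 subunit that carries the transactivation domain, was at 96.4 and 108 CPM against 104 and 104 CPM, with a log2 fold change of 0.03 (standard error 0.09). RELB and NFKB2, the pair of the noncanonical pathway, had log2 fold changes of 0.10 and 0.17. NFKB2 was at 0.28 without vector library 2 (edgeR adjusted p = 0.0349) and at 0.039 without vector library 1 (edgeR adjusted p = 0.671).

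Of the 6 members grouped here as inhibitors, 3 fell and none rose, against 19.1% and 21.6% of all tested genes. NFKBIZ is grouped with them by its gene family, and its role as an inhibitor was not tested. With edgeR on all 4 libraries, all 6 had a log2 fold change below 0, as had 7211 of the 15246 tested genes. Their median was -0.32, against 0.04. This holds for the listed members only: among the other regulators given below, N4BP1 and CYLD rose and BCL3 fell. NFKBIA encodes IκBα, which holds NF-kB dimers in the cytoplasm, and was at 61.2 and 67.0 CPM in vector cells and at 37.7 and 34.3 CPM in JMJD3 cells. Both JMJD3 libraries were low, the gap between groups was several times the spread within either, and the log2 fold change was -0.83 (standard error 0.10, edgeR adjusted p = 0.00247). Set against RELA, a pair chosen after the values were seen, NFKBIA had an FPKM ratio of 0.920 and 0.924 in vector cells and of 0.447 and 0.410 in JMJD3 cells. Part of this drop lies in RELA, which on FPKM values was at 56.0 and 63.2 against 72.3 and 68.8 (0.24 on log2(FPKM + 1), limma adjusted p = 0.111).

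TNFAIP3, the ubiquitin-editing enzyme that ends signalling at TRAF6 and RIPK1, was at 37.1 and 29.8 CPM in vector cells and at 16.3 and 17.2 CPM in JMJD3 cells. The JMJD3 libraries were alike and the lower vector library was still well above them, with a log2 fold change of -1.003 (standard error 0.13, edgeR adjusted p = 0.00285). NFKBIE, which encodes IκBε, went from 35.7 and 41.4 CPM to 29.8 and 27.0 CPM without overlap (log2 fold change -0.44, standard error 0.12, edgeR adjusted p = 0.0253). Its call was lost without JMJD3 library 1 (-0.52, edgeR adjusted p = 0.102) or 2 (-0.37, edgeR adjusted p = 0.278), with no filter and on FPKM values. NFKBIB, NFKBIZ and TNIP1, the partner of TNFAIP3, had log2 fold changes of -0.20, -0.13 and -0.14. Within lane 17 NFKBIB (-0.37, edgeR adjusted p = 0.00726) and TNIP1 (-0.27, edgeR adjusted p = 0.0130) passed, but without vector library 2 they were at -0.061 and -0.029 (edgeR adjusted p = 0.470 and 0.702). NFKBIZ turned above 0 on FPKM values.

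Because NF-kB subunits and inhibitors are classical NF-kB targets, the promoters of the members were searched for the NF-kB consensus of 10 letters on both strands. RefSeq (GRCh38.p14) gave a window of 250 bases before to 50 after a start for 40 of the 51 members, 53 windows in all, of which 15 (28.3%) held a match. The share was 13.3% of 13974 windows of tested genes and 11.3% of all 35116 windows. Per gene, a match stood in 13 of the 40 members and in 1642 of 9668 tested genes. Among passing members a match stood in 2 of the 8 with a window that rose, REL and TICAM1, and in 3 of the 5 that fell, NFKB1, TNFAIP3 and NFKBIA. Among members that did not pass it stood in 8 of 23. These 5 promoters are shown since the same motif stands before genes that moved in opposite directions. They were chosen after the values and matches were seen. Each line gives the 130 bases before the start, 5′ to 3′ on the strand of the gene, with the matches in capitals.
REL: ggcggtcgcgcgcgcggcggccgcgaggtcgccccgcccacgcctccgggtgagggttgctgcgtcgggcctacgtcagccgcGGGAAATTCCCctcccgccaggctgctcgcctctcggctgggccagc
TICAM1: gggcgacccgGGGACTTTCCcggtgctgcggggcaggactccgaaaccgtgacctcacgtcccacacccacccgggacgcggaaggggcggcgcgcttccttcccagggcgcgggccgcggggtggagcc
NFKB1: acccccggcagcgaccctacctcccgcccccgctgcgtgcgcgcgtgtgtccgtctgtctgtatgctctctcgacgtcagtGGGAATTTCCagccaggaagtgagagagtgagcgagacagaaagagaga
TNFAIP3: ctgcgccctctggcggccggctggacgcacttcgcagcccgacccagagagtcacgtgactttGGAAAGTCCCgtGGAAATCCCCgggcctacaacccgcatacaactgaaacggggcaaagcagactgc
NFKBIA: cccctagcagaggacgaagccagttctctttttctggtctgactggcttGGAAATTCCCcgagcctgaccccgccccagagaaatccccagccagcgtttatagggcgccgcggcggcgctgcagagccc

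In GRCh38 these stretches lie at chr2:60881444-60881573 (REL, plus strand), chr19:4831713-4831842 (TICAM1, minus strand), chr4:102501229-102501358 (NFKB1, plus strand), chr6:137867129-137867258 (TNFAIP3, plus strand) and chr14:35404750-35404879 (NFKBIA, minus strand). The match of REL reads on both strands, 1 base apart, and begins at base -47, counted from the start. TNFAIP3 holds 2 matches, beginning at -67 and -55, and NFKBIA holds 1, at -81. The match of NFKB1, in 1 of its 2 windows, begins at -49 and that of TICAM1 at -120. A match is a description of these letters and not of binding, which was not measured.

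Of the 6 NOD-like receptor and inflammasome members, NLRP3 and NOD1 rose, CASP1 fell, and NOD2, at 3 to 9 counts, was not tested (3 of the 5 tested passed, against 40.7% of all tested genes). NLRP3, the sensor that builds an inflammasome with PYCARD and CASP1, was at 34.7 and 32.7 CPM in vector cells and at 46.0 and 49.4 CPM in JMJD3 cells. The groups did not overlap (log2 fold change 0.50, standard error 0.10, edgeR adjusted p = 0.00984), but on log2(FPKM + 1) the difference was 0.20 (limma adjusted p = 0.244). NOD1, a cytoplasmic sensor of peptidoglycan fragments, went from 13.7 and 14 CPM to 19.0 and 20.3 CPM, again with tight pairs (log2 fold change 0.50, standard error 0.10, edgeR adjusted p = 0.0110), and on log2(FPKM + 1) the difference was 0.33 (limma adjusted p = 0.114).

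CASP1, the protease that matures interleukin-1β and interleukin-18, fell from 15.5 and 15.2 CPM to 10.9 and 11.7 CPM. Both JMJD3 libraries were low, with a log2 fold change of -0.44 (standard error 0.11, edgeR adjusted p = 0.0193). The calls of NLRP3, NOD1 and CASP1 were lost without JMJD3 library 1 (0.55, 0.55 and -0.39, edgeR adjusted p = 0.0616, 0.0624 and 0.243) and without JMJD3 library 2 (0.45, 0.45 and -0.50, edgeR adjusted p = 0.156, 0.154 and 0.132), and that of CASP1 with no filter. The adaptor PYCARD (67.4, 82.6, 70.1 and 64.4 CPM) overlapped between groups and NLRP1 (log2 fold change 0.24) did not pass. PYCARD was at -0.34 within lane 17 (edgeR adjusted p = 0.0160) and at -0.0023 without vector library 2 (edgeR adjusted p = 0.985). In CPM, NLRP3 was thus higher and CASP1 lower in both JMJD3 libraries than in either vector library. Such a lack of overlap was seen for 74.4% of all tested genes, so it is no result about the inflammasome.

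The other genes of the pathway were read from lists compiled beside the members. Of 25 other receptor-proximal genes 22 were tested, 8 rose and 5 fell (59.1% passed, against 40.7% of all tested genes), and their median log2 fold change was 0.10. The Pellino ubiquitin ligases PELI3 and PELI2, which act on IRAK1, rose by 1.30 and 0.82 on the log2 scale, PELI3 from 5.42 and 6.10 CPM to 14.1 and 14.3 CPM. TRAF1 (0.836 and 0.524 CPM against 2.65 and 2.67 CPM) and TRAF5 (0.863 and 0.734 CPM against 2.62 and 2.65 CPM), adaptors of the tumour necrosis factor receptor family, rose by 1.97 and 1.72. On log2(FPKM + 1) they were at 0.39 and 0.68 (limma adjusted p = 0.0184 and 0.0118). CD36, a scavenger receptor that works with TLR2 and TLR6, was the gene that fell most in this list, from 20.9 and 18.1 CPM to 3.40 and 3.83 CPM (log2 fold change -2.43, standard error 0.14, edgeR adjusted p = 0.000375).

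UNC93B1, which carries TLR3, TLR7, TLR8 and TLR9 to endosomes, fell from 122 and 145 CPM to 91.1 and 85.8 CPM (log2 fold change -0.60, standard error 0.11, edgeR adjusted p = 0.00667). CNPY3, a chaperone of Toll-like receptors, had a log2 fold change of -0.46, and UBE2N, the ubiquitin-conjugating enzyme of TRAF6, of -0.31. The calls of CNPY3 and UBE2N were lost without JMJD3 library 1 (edgeR adjusted p = 0.0534 and 0.179) or 2 (0.163 and 0.261), that of UBE2N also with the replicate block (edgeR adjusted p = 0.0675) and on log2(FPKM + 0.1), that of CNPY3 with no filter, and that of PELI2 on FPKM values. In GENCODE 41.6% of the exon bases of UBE2N overlap NUDT4 on the opposite strand, and the kit is not stated to keep strand.

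Of 31 other regulators of IKK and NF-kB, 30 were tested, 3 rose and 9 fell (40.0% passed, against 40.7% of all tested genes), with a median log2 fold change of -0.02. IRF5, a transcription factor activated through MyD88, fell from 3.29 and 3.01 CPM to 1.24 and 1.27 CPM (log2 fold change -1.33, standard error 0.18, edgeR adjusted p = 0.00306). BCL3, a nuclear IκB protein, fell from 6.93 and 7.23 CPM to 4.10 and 4.05 CPM (log2 fold change -0.80), followed by USP18 (-0.69), a protease that removes ISG15, and TBKBP1 (-0.59), an adaptor of TBK1. The 3 that rose were N4BP1 (0.79), an inhibitor of NF-kB signalling, TANK (0.51), which binds TBK1 and IKBKE, and the deubiquitinase CYLD (0.50). The calls of USP18, TBKBP1, TANK and CYLD were lost without JMJD3 library 1 (edgeR adjusted p = 0.0624, 0.0557, 0.0754 and 0.0772) or 2 (0.0648, 0.0587, 0.104 and 0.118), that of CYLD also on FPKM values and with no filter, and that of USP18 on log2(FPKM + 0.1).

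Of 23 other NOD-like receptor, inflammasome and nucleic acid sensor genes 19 were tested, 7 rose and 3 fell (52.6% passed, against 40.7% of all tested genes), with a median log2 fold change of 0.15. NEK7, the kinase that NLRP3 needs for assembly, was at 16 and 8.62 CPM in vector cells and at 35 and 32.0 CPM in JMJD3 cells (log2 fold change 1.45, standard error 0.26, edgeR adjusted p = 0.00692). Its vector libraries lay well apart, and the value was 1.92 without vector library 1 and 1.07 without vector library 2. With no filter NEK7 passed narrowly (edgeR adjusted p = 0.0491). TXNIP, which binds NLRP3, went from 152 and 143 CPM to 331 and 335 CPM (log2 fold change 1.18, standard error 0.08, edgeR adjusted p = 0.000532). In CPM, NLRP3, NEK7 and TXNIP were higher in both JMJD3 libraries than in either vector library. The groups did not overlap for 74.4% of all tested genes. NEK7 and TXNIP were named for the size of their rise, while CASP1 fell and PYCARD overlapped between groups. CARD8 and NLRP12 had log2 fold changes of 0.93 and 0.75, but on log2(FPKM + 1) of 0.26 and 0.21 (limma adjusted p = 0.0708 and 0.139). NLRP12 was also lost without vector library 2 (0.59, edgeR adjusted p = 0.112) or JMJD3 library 2 (0.58, edgeR adjusted p = 0.285), with the DESeq2 Wald test and with no filter. CASP4 (-0.37), CASP8 (-0.31) and NLRC5 (-0.25) fell, and their calls were lost without JMJD3 library 1 (edgeR adjusted p = 0.158, 0.325 and 0.390) or 2 (0.260, 0.385 and 0.308). Those of CASP8 and NLRC5 were lost too with upper quartile scaling, with no filter and with the replicate block (edgeR adjusted p = 0.138 and 0.154), and that of CASP8 on FPKM values.

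Of 40 known NF-kB target genes 29 were tested, 11 rose and 3 fell, where 21.6% of all tested genes rose and 19.1% fell. Their median log2 fold change was 0.03, close to that of all genes. CCL5, a chemokine, rose from 75 and 83.6 CPM to 197 and 186 CPM (log2 fold change 1.27, standard error 0.09, edgeR adjusted p = 0.000691). TRAF1, given above, and EBI3, a cytokine subunit at 0.594 and 0.629 CPM against 1.40 and 1.46 CPM, rose as well, EBI3 not with the DESeq2 Wald test (adjusted p = 0.0531). CCR7, a chemokine receptor, had 1 and 3 counts in vector libraries and 11 and 11 in JMJD3 libraries, a ratio of 5.59 with an exact 95% interval of 1.90 to 22.3 that covers counting error only. CCR7 had a log2 fold change of 2.41, and of 1.84 or 3.31 without vector library 1 or 2. It was tested only because the JMJD3 libraries met the filter on low counts, had no test where every library needed 10 counts, and its call was lost without JMJD3 library 1 or 2 (edgeR adjusted p = 0.0765 and 0.0823), with the DESeq2 Wald test, on FPKM values and with no filter.

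PTX3, a secreted pattern recognition molecule, fell from 1.94 and 2.02 CPM to 0.216 and 0.270 CPM, with a log2 fold change of -3.01 (standard error 0.28, edgeR adjusted p = 0.00125). This was the lowest in these lists, but on log2(FPKM + 1) PTX3 was at -0.94 and CD36 at -2.02. With 8 and 10 counts in JMJD3 libraries PTX3 met the filter on low counts through the vector libraries and had no test where every library needed 10 counts. With no filter it passed (edgeR adjusted p = 0.0152). IL1RN, the interleukin-1 receptor antagonist, fell from 6.39 and 7.0 CPM to 2.65 and 2.54 CPM (log2 fold change -1.37, standard error 0.14, edgeR adjusted p = 0.00179). CXCL2 went from 30 and 40 counts to 14 and 16 (log2 fold change -1.19), and its call was lost without vector library 2 (-0.99, edgeR adjusted p = 0.0501), without JMJD3 library 1 (-1.10, edgeR adjusted p = 0.123) or 2 (-1.29, edgeR adjusted p = 0.0808), with the DESeq2 Wald test and with no filter. CXCL1 and PTGS2 had 0 counts in every library.

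**Figure D4:**
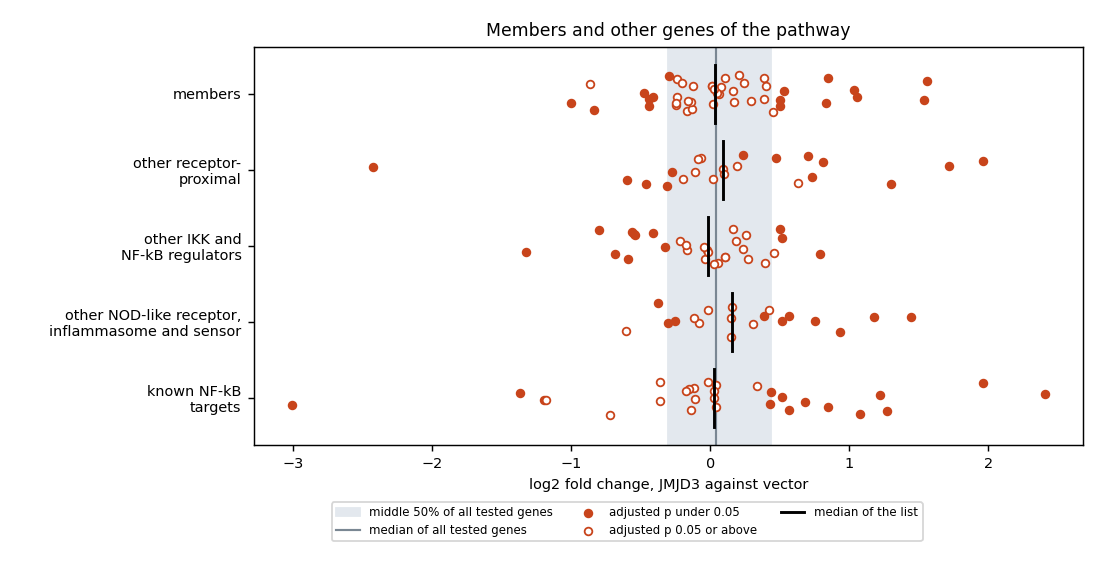
Log2 fold change of the tested members and of the tested genes in 4 other lists of the pathway, with the median of each list as a black line and the middle 50% of all tested genes shaded. List medians lie between -0.02 and 0.15 around the median of all tested genes, 0.04, PTX3 (-3.01) and CD36 (-2.43) lie furthest to the left, and CCR7, with 1 and 3 counts in vector libraries, furthest to the right.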

How the data were processed

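For RNA of 4 NB4 libraries the authors deposited, per gene, an estimated count (a value that need not be whole) and an FPKM value. The submitters' processing notes name CASAVA 1.8, TopHat2 2.0.4, RSEM, edgeR and GRCh38, the design text BWA, TopHat and Cufflinks, and the methods STAR to hg19, HTSeq-count and DESeq2. These disagree. The counts are not whole, and 6946 of 60662 gene identifiers are numbered at or above ENSG00000272000, numbers of the GRCh38 era. Promoter positions are those of RefSeq in GRCh38.p14. Estimated counts can divide reads between similar or overlapping genes. Columns with the authors' fold changes, p-values and FDR were not used.

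Estimated counts were rounded to whole numbers, filtered with filterByExpr (15246 genes kept) and scaled by TMM. The test was the quasi-likelihood test of edgeR 4.0.16 in R 4.3.3, with Benjamini-Hochberg adjustment over all tested genes. A standard error is the absolute log2 fold change over the root of its F. CPM uses TMM-scaled totals. A count of 0 allows up to 3 counts, 0.0786 to 0.0810 CPM, a limit for counting error alone. Alternatives were DESeq2 1.42.0 size factors and Wald test, upper quartile scaling, a test of FPKM values by limma 3.58.1 with a pseudocount of 1 or of 0.1, at least 10 counts in every library, no filter at all, a replicate block and each library left out, the lone library then being assumed to vary like the other group.

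Full values are given for members with an adjusted p under 0.05. In each other list, up to 4 genes with the highest and up to 4 with the lowest log2 fold change at an adjusted p under 0.05 are named. Other genes singled out were chosen after their values were seen. Members and lists were chosen with earlier results of these data known. Exon overlaps come from GENCODE release 44 on GRCh37, matched by gene identifier, and overlaps of 10% or more with a gene on the opposite strand were found for PYCARD, NOD1, IRF3, PELI3 and UBE2N. IKBKG has a near-identical pseudogene. Promoters come from RefSeq, matched by symbol.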

Additional observations from a re-analysis of the deposited data

How the results depend on the processing

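KDM6B rose under every alternative tried (log2 fold change 1.19 to 1.58). Of the 16 passing members, 5 (TLR6, TICAM1, TIRAP, NFKBIA and TNFAIP3) stayed past the threshold under all 12, and none of the 16 changed sign. Counts moved by over 1.5 times as follows. On log2(FPKM + 1), 5 members rose in place of 9 and 1 passed at 2-fold in place of 5, and on log2(FPKM + 0.1) 5 rose and 3 passed at 2-fold. Of all 15246 tested genes 2046 and 2032 rose on these 2 scales, in place of 3292. With no filter, which tests more genes, 4 members fell in place of 7, and 1776 of all 27095 genes fell in place of 2906 of 15246. With 1 library left out, the number of members that passed moved with the library, as did the number over all tested genes. The median log2 fold change of the members then ran from -0.013 to 0.033, and that of all tested genes from 0.020 to 0.036.

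The reversed values belong to members that did not pass with all libraries, and the cause was not tested. With DESeq2 size factors the log2 fold change was -0.019 for TAB1, -0.022 for IKBKB, -0.013 for IRF3 and -0.0096 for RELA, and with the DESeq2 Wald test -0.019, -0.022, -0.013 and -0.0096. On log2(FPKM + 1) it was -0.047 for TAB1, -0.18 for IKBKB, -0.20 for CHUK and 0.026 for NFKBIZ, and on log2(FPKM + 0.1) -0.051, -0.18, -0.21 and 0.038. With 1 library left out, values ran from -0.22 to 0.47 for CD14, -0.12 to 0.24 for IRAK3, -0.36 to 0.028 for TRAF6, -0.053 to 0.057 for TAB1, -0.024 to 0.012 for IKBKB, -0.050 to 0.18 for CHUK, -0.12 to 0.20 for TBK1, -0.15 to 0.17 for IRF3, -0.092 to 0.11 for RELA and -0.055 to 0.24 for RELB.

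The libraries share replicate numbers, but nothing states that they pair: across genes, the deviations of the libraries numbered 1 from their group means had a correlation of -0.25. With the replicate block 11 members rose (BIRC2 and TAB3 added), 6 fell (NFKB1 lost) and 4 passed at 2-fold, and KDM6B had a log2 fold change of 1.47. Of all 15246 tested genes 3267 rose and 2415 fell with this block, against 3292 and 2906 without it. With crossed numbers, a pairing chosen after seeing the data, 12 members rose, 10 fell and 4 passed at 2-fold, while 4335 of all tested genes rose and 3772 fell. Depth limits the 7 untested members and IRAK2, CD14 and TLR3, which rest on at most 50 counts in a library.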
